A study of Mus musculus with 48 samples.

Results

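The genes examined here encode the subunits of the mitochondrial respiratory chain and of ATP synthase. They were taken by symbol (the Nduf, Sdh, Uqcr, Cyc1, Cox4 to Cox8 and Atp5 series, and the protein genes of mitochondrial DNA, leaving out pseudogenes and the muscle and brown fat isoforms Cox7a1 and Cox8b). This gave 94 of the 25913 genes in each table. Of these, 81 are nuclear (37 of complex I, 4 of complex II, 9 of complex III, 14 of complex IV and 17 of complex V, which is ATP synthase) and 13 are mitochondrial (7 of complex I, 1 of complex III, 3 of complex IV and 2 of complex V). The symbol patterns do not take in Cox4i1, Cox4i2 and Ndufab1.

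Complexes I to IV sit in the inner mitochondrial membrane and pass electrons from NADH and succinate to oxygen, complexes I, III and IV pump protons, and ATP synthase uses the proton gradient to make ATP. Mitochondrial DNA encodes a small core of these subunits and the nucleus encodes the rest, so each complex except complex II is built from the products of both genomes. White adipocytes hold few mitochondria beside their lipid droplet. Brown adipocytes are packed with them and dissipate the gradient as heat through uncoupling protein 1, while hepatocytes use the chain to support fatty acid oxidation and gluconeogenesis.

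RNA was sequenced from white adipose tissue (WAT, labelled epididymal although the mice are female), brown adipose tissue (BAT) and liver of C3B6F1 mice, an F1 hybrid of inbred strains. Mice fed without limit (AL) and mice on dietary restriction (DR, 60% of the AL intake from 12 weeks of age) were compared at 26 months (27 months in the protocol text) in 3 WAT and 3 BAT libraries per group. Late switches at 24 months, from AL to DR (ALDR) or from DR back to AL (DRAL), gave 5 libraries of each in WAT, 5 and 3 in BAT, and 3 and 3 in liver. Young mice of 5 months were on AL or had spent 2 months on DR (ALDR), with 3 libraries per group and fat depot. Restriction was introduced stepwise, all mice were killed within 3 h before the restricted mice would have been fed, and WAT and liver were sequenced from ribosome-depleted RNA and BAT from poly(A) RNA. Each library is a separate biological sample by its label, and the labels do not say which tissues came from the same mouse.

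Total counts ranged from 12247161 to 22500246 in WAT, 6075585 to 19349912 in BAT and 14678489 to 22893099 in liver. Adipocyte markers were high in every fat library and hepatocyte markers in every liver library. BAT libraries carried Ucp1 at 937 to 6082 CPM (reads per gene relative to the TMM-normalised library size), against at most 51.1 CPM in WAT. Some libraries stood apart. The skeletal muscle marker Ckm exceeded 100 CPM in 5 WAT libraries (AL replicate 1, DR replicates 2 and 3, and ALDR replicates 2 and 5, all at 26 months). Hepatocyte markers averaged above 6 log2 CPM in 3 WAT libraries (AL replicate 3 and ALDR replicate 2 at 26 months, and AL replicate 2 at 5 months). The 10 WAT libraries of the late switches held the lysosomal enzyme gene Arsb at 23.6 to 32.7 CPM and the other 12 at 45.3 to 135 CPM, and what sets them apart was not tested. Each comparison of a late switch with AL or DR in WAT crosses this split, as does the difference in response between ages.

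Nuclear subunit genes drew more reads than the typical gene in each tissue. The median CPM of those tested was 96.5 in WAT, 297 in BAT and 115 in liver, against 20.1, 17.4 and 14.5 over all genes tested. Together they took 0.803 to 1.49% of the counts in WAT, 2.97 to 4.80% in BAT and 1.14 to 1.31% in liver. These shares are not comparable between tissues, since the totals hold different shares of mitochondrial counts and BAT RNA was prepared differently. Levels were also scaled to CPM per kilobase of the longest annotated coding transcript, a length that may differ from the form expressed. On this scale Atp5b, the catalytic β subunit of ATP synthase, was the highest nuclear member in each tissue (means of 902 in WAT, 3121 in BAT and 744 in liver). Atp5a1, the α subunit, was second in WAT (436) and liver (619), and Cox6a1 was second in BAT (1382). In CPM not scaled to length, Atp5a1 was above Atp5b in every liver library (1508 to 1840 and 1220 to 1666 CPM). The lowest tested members in WAT were Cox6b2 and Cox6a2, isoforms known from testis and from striated muscle, at 2.06 and 2.58 CPM per kilobase. Cox7b2 and Cox8c, whose known site is testis, had no count in any of the 22 WAT libraries, and 79 of the 81 nuclear members were tested there. BAT also allowed 79 to be tested (Cox7b2 had 1 count in 1 of 20 libraries and Cox8c none), and liver 77 (Cox6b2, Cox7b2 and Cox8c at 0, and at most 4 counts of Ndufa4l2).

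Mitochondrial transcripts took 0.330 to 2.32% of the counts in WAT and 12.8 to 20.9% in BAT. They were listed at 0 in all 6 liver libraries, so that the 13 genes were described in fat only. Several mitochondrial genes share most of their 100-base windows with other annotated sequence, such as nuclear copies, namely mt-Co3 (99.9% of windows), mt-Co2 (99.5%), mt-Atp6 (99.5%), mt-Nd4l (98.5%) and mt-Nd3 (97.6%). Their reads may be split or lost in counting. In WAT the median count was 52 for mt-Co3 and 19 for mt-Co2 against 96339 for mt-Co1, of which 30.8% of windows are shared, so values for these 5 genes are uncertain, and in part those of mt-Co1 and mt-Nd4 (60.8% of windows). None of the windows of mt-Nd1, mt-Nd5, mt-Nd6, mt-Cytb and mt-Atp8 is shared. Among nuclear members, Atp5l (69.0%), Ndufb4 (33.4%), Atp5o (30.3%) and Atp5h (29.5%) are uncertain in the same way.

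Promoters of nuclear subunit genes are known to carry sites for NRF1, ETS factors such as GABP, estrogen-related receptors (ERR) and YY1. RefSeq promoter windows on GRCm38.p6, from 250 bases before the transcript start to 50 after it, were matched for 64 of the 81 nuclear members (69 windows). The letters searched, on both strands, were GCATGCGC for NRF1, CCGGAAG for ETS, AAGGTCA for the short ERR site and AAGATGGC for YY1. The NRF1 letters were in 14.5% of member windows and 2.71% of all 32851 windows, or 4.54% of the 15147 windows of genes tested in WAT. The corresponding shares were 23.2%, 8.86% and 15.2% for ETS, 11.6%, 4.72% and 3.47% for ERR, and 13%, 2.75% and 3.82% for YY1. At least 1 of the 4 was in 47.8% of member windows (33 of the 64 genes), 17.6% of all windows and 24.4% of those of tested genes. A match is a description of the letters and not a binding site.

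One window per complex is shown, so that the letters can be read in genes that rose with restriction in WAT. It is that of the member with the smallest p in DR against AL among those with a match, a choice made after the values were seen. Capitals mark the matched letters, which read in the reverse complement where the match is on the other strand. They are YY1 in Ndufs7 (a complex I core subunit), ETS and ERR in Sdhd (a membrane anchor of complex II), NRF1 on both strands of an overlapping palindrome in Uqcrc1 (a core protein of complex III), ETS in Cox6b1 (complex IV), and YY1 and ETS in Atp5j (a stalk subunit of ATP synthase).
Ndufs7 (chr10:80249199-80249498, plus strand): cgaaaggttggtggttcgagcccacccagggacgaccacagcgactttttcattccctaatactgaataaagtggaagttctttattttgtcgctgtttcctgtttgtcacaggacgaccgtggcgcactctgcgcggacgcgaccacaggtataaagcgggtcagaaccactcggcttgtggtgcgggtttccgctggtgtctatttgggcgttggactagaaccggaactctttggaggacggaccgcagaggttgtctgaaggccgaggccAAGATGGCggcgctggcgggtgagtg
Sdhd (chr9:50603800-50604099, minus strand): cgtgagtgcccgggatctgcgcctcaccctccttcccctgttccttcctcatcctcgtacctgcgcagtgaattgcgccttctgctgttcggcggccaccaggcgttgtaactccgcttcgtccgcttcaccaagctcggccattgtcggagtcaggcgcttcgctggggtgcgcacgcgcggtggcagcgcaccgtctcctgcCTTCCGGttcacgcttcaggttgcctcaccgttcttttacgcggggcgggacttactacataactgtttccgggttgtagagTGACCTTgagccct
Uqcrc1 (chr9:108936398-108936697, plus strand): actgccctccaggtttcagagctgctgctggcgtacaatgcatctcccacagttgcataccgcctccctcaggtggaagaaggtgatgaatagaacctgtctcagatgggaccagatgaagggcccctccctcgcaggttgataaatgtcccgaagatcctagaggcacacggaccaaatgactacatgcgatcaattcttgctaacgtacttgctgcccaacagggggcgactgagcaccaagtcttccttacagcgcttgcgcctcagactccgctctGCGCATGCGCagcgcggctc
Cox6b1 (chr7:30626065-30626364, minus strand): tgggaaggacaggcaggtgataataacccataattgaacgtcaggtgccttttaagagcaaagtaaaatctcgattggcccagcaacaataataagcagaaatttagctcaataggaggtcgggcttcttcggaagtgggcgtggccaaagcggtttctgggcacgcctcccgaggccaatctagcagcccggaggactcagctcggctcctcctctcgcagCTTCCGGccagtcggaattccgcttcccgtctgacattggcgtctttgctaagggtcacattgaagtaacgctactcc
Atp5j (chr16:84834927-84835226, minus strand): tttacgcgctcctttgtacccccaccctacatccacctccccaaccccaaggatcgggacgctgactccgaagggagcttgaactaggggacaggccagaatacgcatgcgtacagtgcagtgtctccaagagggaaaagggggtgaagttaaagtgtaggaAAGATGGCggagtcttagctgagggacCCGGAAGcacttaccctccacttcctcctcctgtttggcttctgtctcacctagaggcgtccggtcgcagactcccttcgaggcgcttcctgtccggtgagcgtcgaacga

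Lifelong restriction was first compared with lifelong AL feeding in WAT at 26 months. Nuclear subunit genes were higher in DR almost throughout: 67 of the 79 tested rose and none fell, with a median log2 fold change (1 unit is a factor of 2) of 0.68 and quartiles of 0.52 and 0.81. Here and below, a gene rose or fell if its Benjamini-Hochberg adjusted p in edgeR's quasi-likelihood test was under 0.05 over all genes tested, and the background was 13.5% of the 15828 genes called higher and 12.5% called lower. All 3 DR libraries lay above all 3 AL libraries for 68 of the 79, against 19.1% of all genes. In bulk tissue, more cells of a type and more RNA per cell cannot be told apart.

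**Figure D1:**
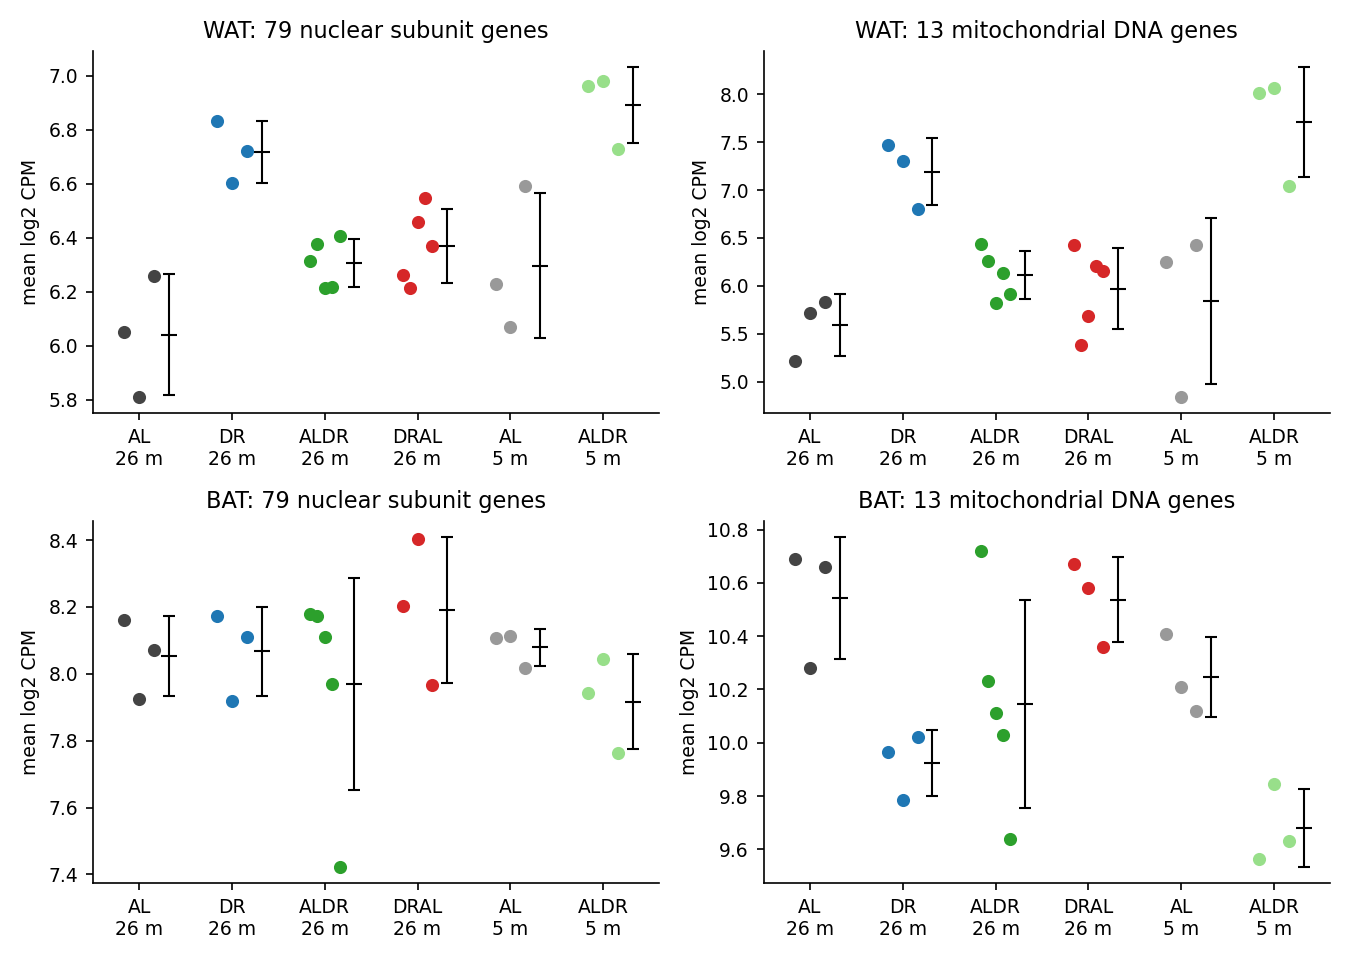
Mean log2 CPM over the 79 nuclear (left) and 13 mitochondrial (right) subunit genes in each WAT (top) and BAT (bottom) library. Points are libraries and bars show the group mean ± SD. In WAT the 3 DR and 3 young ALDR libraries are the highest of their ages in both panels (nuclear means of 6.602 to 6.831 and 6.73 to 6.98), while in BAT the mitochondrial means are lowest in young ALDR, DR and 1 old ALDR library.

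Among complex I members, 30 of 37 rose, with a median log2 fold change of 0.59. Ndufv1, the subunit that binds NADH, was at 149, 139 and 183 CPM in AL and at 297, 282 and 274 CPM in DR. The groups did not overlap, and its log2 fold change was 0.86 ± 0.13 (SE, n = 3 each; edgeR adjusted p = 0.000124). Ndufs1, an iron-sulfur subunit of the arm that accepts electrons, was at 177, 157 and 218 CPM in AL and at 323, 282 and 308 CPM in DR. Every DR library was again above every AL library (0.73 ± 0.15, adjusted p = 0.00184). Ndufb8, an accessory subunit of the membrane arm, went from 122, 104 and 149 CPM to 230, 177 and 186 CPM (0.66 ± 0.17, adjusted p = 0.00672). Ndufa4, which was first assigned to complex I and is now counted with complex IV, rose by 0.72 ± 0.18 (adjusted p = 0.00658). Its paralog Ndufa4l2, known as a gene induced by hypoxia, was the only tested nuclear member with a value below 0. It stood at 5.18, 6.42 and 4.26 CPM in AL and at 4.29, 2.49 and 2.60 CPM in DR, with overlapping groups and a log2 fold change of -0.76 ± 0.37 that did not pass (adjusted p = 0.146).

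All 4 complex II genes and all 9 complex III genes rose, with median log2 fold changes of 0.79 and 0.82. Sdha, the flavoprotein that oxidises succinate and also serves the TCA cycle, was at 337, 304 and 348 CPM in AL and at 624, 683 and 567.5 CPM in DR. The DR libraries were all higher (0.92 ± 0.18, edgeR adjusted p = 0.0012), and the iron-sulfur partner Sdhb rose by 0.80 ± 0.16 (adjusted p = 0.0011). Uqcrfs1, the Rieske iron-sulfur protein of complex III, was at 88.1, 79.8 and 115 CPM in AL and at 236, 184 and 196 CPM in DR. Its rise of 1.12 ± 0.18 (adjusted p = 0.000212) was the largest of any nuclear member other than Cox6a2. Cyc1, which carries the heme of cytochrome c1, was at 58.8, 54.3 and 74.2 CPM in AL and at 122, 124 and 113 CPM in DR (0.94 ± 0.14, adjusted p = 8.38e-05). The core protein Uqcrc1 rose by 0.66 ± 0.12 (adjusted p = 0.000673), with no overlap between groups.

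For complex IV, 10 of 12 tested members rose (median 0.72), and for complex V, 14 of 17 (median 0.66). Cox5a, a nuclear subunit close to the catalytic core of complex IV, was at 36.2, 34.5 and 48.03 CPM in AL and at 85.0, 68.0 and 76.3 CPM in DR, again without overlap (0.95 ± 0.15, edgeR adjusted p = 0.000163). Cox6a1, Cox7a2 and Cox8a, forms found in most tissues, rose by 0.78 ± 0.21 (adjusted p = 0.0105), 0.66 ± 0.17 (0.00653) and 0.59 ± 0.19 (0.0239). Atp5b was at 1230, 1021 and 1458 CPM in AL and at 1993, 2075 and 2008 CPM in DR. Atp5a1 was at 839, 736 and 1014 CPM in AL and at 1509, 1415 and 1482 CPM in DR. The DR libraries of both ATP synthase genes were close together and above all AL libraries (0.71 ± 0.14, adjusted p = 0.000936, and 0.77 ± 0.12, adjusted p = 0.000218). The smallest called rise was that of Ndufs5 (0.39), and the 12 tested members that did not pass included Ndufb3 (0.08) and Cox7a2l (0.04), named after their values were seen.

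Cox6a2, the complex IV isoform of heart and skeletal muscle, had another profile. It was at 0.911, 0.227 and 0.312 CPM in AL and at 0.522, 6.26 and 21.7 CPM in DR. The groups overlapped and the fitted log2 fold change was large and imprecise (4.26 ± 1.42, edgeR adjusted p = 0.0352). The same 3 DR libraries held Ckm, muscle creatine kinase, at 45.8, 531 and 1944 CPM in the same order. Of 10 skeletal muscle markers, 5 rose and none fell (median log2 fold change 4.55). Their mean level ranged from 4.86 to 10.2 log2 CPM in DR and from 0.45 to 5.997 in AL, and none was at 0 in every library of either group.

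Libraries high in muscle RNA were set aside, an alternative chosen after the data were seen. Without the 5 libraries above 100 CPM of Ckm, 1 DR and 2 AL libraries remained, and the lone DR library was assumed to vary like the other groups. The median log2 fold change of the nuclear members was then 0.77 and the number called fell from 67 to 26. With the mean level of the muscle markers as a covariate, the median was 0.67 and 45 were called. Leaving out AL replicate 2 alone reduced the count to 44, and leaving out any other library gave 48 to 69. Macrophage markers also moved, with 7 of 8 lower and 1 higher in DR (median -2.19, mean level 7.35 to 7.92 log2 CPM in AL and 5.56 to 6.33 in DR, none at 0). Of 8 adipocyte markers, 4 rose and 1 fell, and their mean level was 10.3 to 10.4 in AL and 10.4 to 10.6 in DR. The part of these shifts in cell make-up in the result was not tested.

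Mitochondrial transcripts were higher in DR by larger factors than the nuclear ones in the same libraries. Of the 13, 10 rose and none fell, the median log2 fold change was 1.68, and all DR libraries lay above all AL libraries for each of the 13. mt-Co1, the catalytic core of complex IV, was at 2776, 3635 and 5104 CPM in AL and at 15358, 12078 and 10044 CPM in DR. This corresponds to a log2 fold change of 1.70 ± 0.35 (SE, n = 3 each; edgeR adjusted p = 0.0016). mt-Cytb, the heme-bearing subunit of complex III, was at 208, 320 and 325 CPM in AL and at 1064, 1191 and 692 CPM in DR (1.79 ± 0.38, adjusted p = 0.00216). mt-Nd1, a membrane subunit of complex I, was at 211, 325 and 342 CPM in AL and at 984, 839 and 669 CPM in DR (1.505 ± 0.36, adjusted p = 0.00482). No library overlapped for these 3 genes. mt-Nd4 rose by 1.94 ± 0.36 (adjusted p = 0.000654), mt-Nd3 by 1.85 ± 0.32 (0.000381), mt-Atp8 by 1.83 ± 0.45 (0.00575) and mt-Atp6, the proton channel subunit of ATP synthase, by 1.82 ± 0.44 (0.00525). The 3 that did not pass were mt-Nd4l (1.68, adjusted p = 0.0701), mt-Nd6 (1.28, 0.179) and mt-Co2 (1.27, 0.173), which with mt-Atp8 are named after their values were seen. With the 5 libraries of high Ckm left out the median was 1.70 and 1 gene was called, and with the muscle covariate 1.78 and 10.

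**Figure D2:**
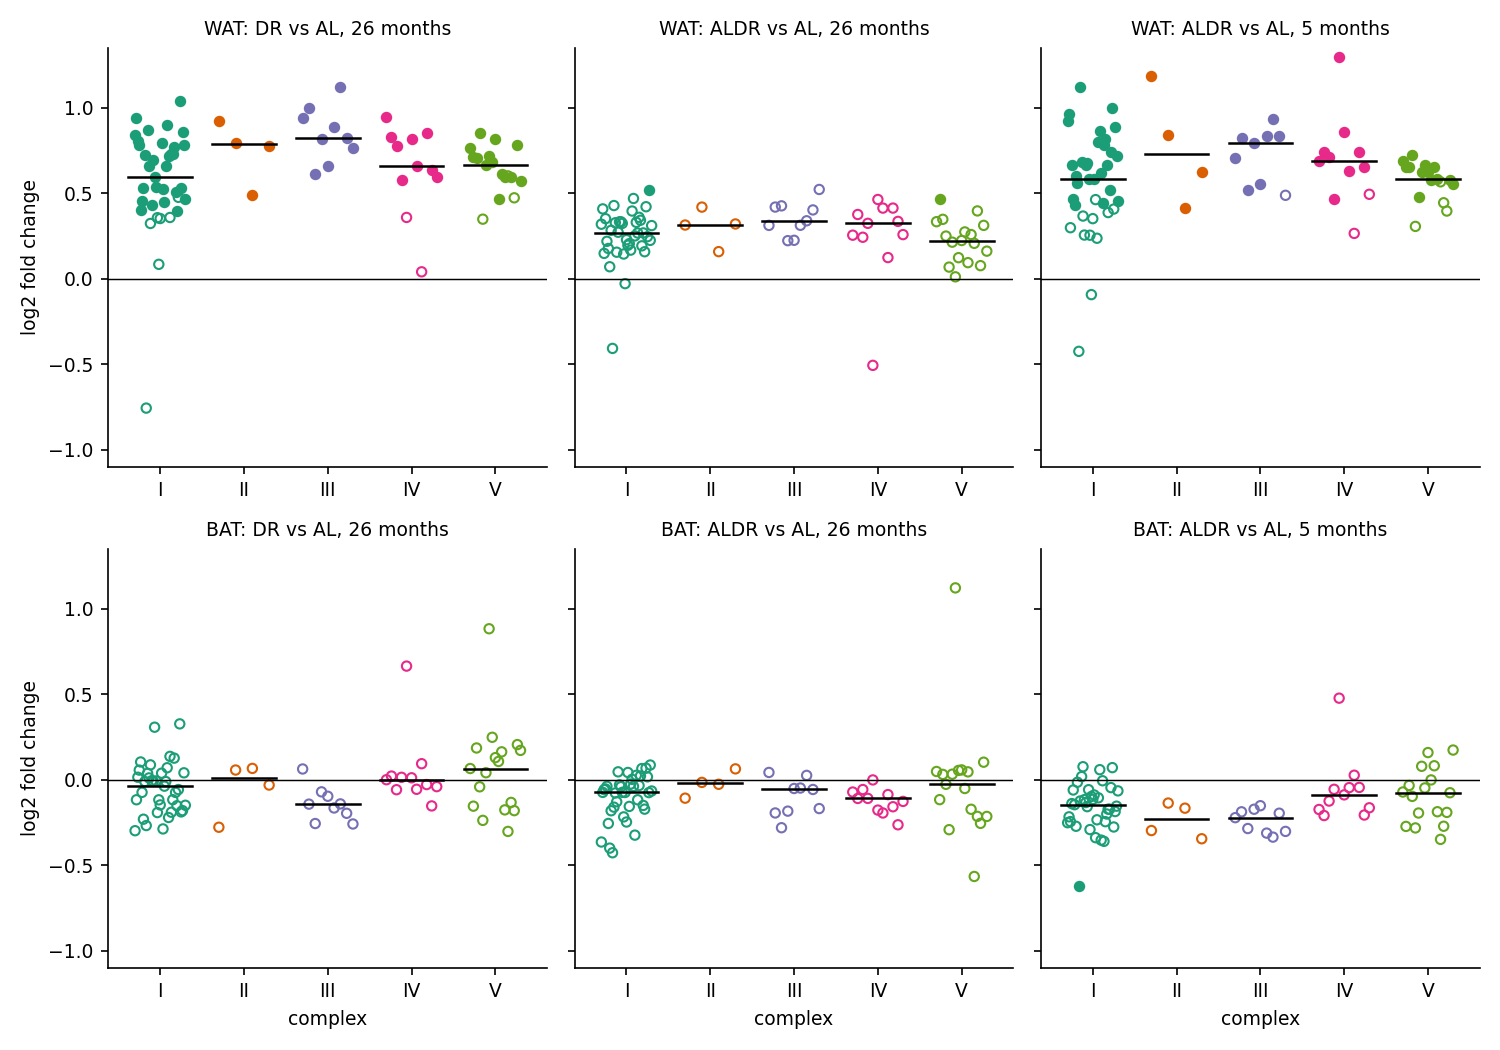
Log2 fold change of each tested nuclear subunit gene except Cox6a2, by complex, in 3 comparisons in WAT (top) and BAT (bottom). Filled points passed an adjusted p of 0.05, open points did not, and lines are medians over the genes drawn. WAT points lie mostly above 0 in all 3 panels and are mostly filled for DR at 26 months and ALDR at 5 months, whereas BAT points lie around or slightly below 0.

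A late start of restriction was compared with continued AL feeding in the same depot. Only Ndufv1 and Atp5b of the 79 nuclear members rose in ALDR, against 2.66% of all genes. Ndufv1 was at 239, 217, 211, 212 and 243 CPM in the 5 ALDR libraries, all above the AL values given above (0.52 ± 0.12, edgeR adjusted p = 0.0187). Atp5b was at 1752, 1701, 1619, 1551 and 1909 CPM, also above AL (0.46 ± 0.12, adjusted p = 0.0400). Values were small but mostly on one side of 0: 76 of 79 were above it (50.8% of all genes), the median was 0.27, and 38 had an unadjusted p under 0.05. DESeq2 called 8. Macrophage markers were at a mean level of 6.84 to 7.49 log2 CPM in ALDR and 7.35 to 7.92 in AL, with overlap (median log2 fold change -0.77), and their part in the result was not tested. The calls of Ndufv1 and Atp5b hung on single libraries. Without AL replicate 1 or AL replicate 2 there were none, without AL replicate 3 there were 5 and without ALDR replicate 4 there were 4, and leaving out ALDR replicate 1, 2, 3 or 5 left 1. None of the 13 mitochondrial genes was called by edgeR or DESeq2 (4 at an unadjusted p under 0.05), with a median of 0.52. mt-Nd4 was at 385, 329, 217, 274 and 270 CPM in ALDR against 113, 189 and 183 CPM in AL, without overlap, and its 0.87 ± 0.32 did not pass (adjusted p = 0.127).

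Set against lifelong DR, the same ALDR libraries were lower. Of the 79 nuclear members 29 fell and none rose, against 6.96% of genes called lower, and all ALDR libraries lay below all DR libraries for 46 (9.62% of all genes). The calls comprised 11 members of complex I, 2 of complex II, 6 of complex III, 2 of complex IV and 8 of complex V. Uqcrfs1 was at 125, 130, 106, 110 and 125 CPM in ALDR, below its DR range of 184 to 236 CPM, and fell by 0.78 ± 0.16 on the log2 scale (edgeR adjusted p = 0.00361). Cox5a fell by 0.69 ± 0.13 (adjusted p = 0.0022), Cyc1 by 0.63 ± 0.12 (0.0024) and Sdha by 0.61 ± 0.16 (0.0185). Ndufv1 (-0.34, adjusted p = 0.0556) and Atp5b (-0.25, 0.185), which had risen against AL, did not pass here. Of the 13 mitochondrial genes 8 fell, with a median of -1.02. mt-Co1 was at 5501, 6977, 4251, 5661 and 4119 CPM in ALDR, all below DR (-1.24 ± 0.30, adjusted p = 0.0114), and mt-Nd3 fell by 1.33 ± 0.27 (adjusted p = 0.00391) and mt-Nd5 by 1.15 ± 0.29 (0.0149).

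The mean in ALDR lay between those of AL and DR for 76 of 79 nuclear members (96.2%) and for 13 of 13 mitochondrial ones, against 55.8% of all genes tested. Most members were called between AL and DR and most genes were not, so the share over all genes is not a like background. The calls between ALDR and DR depended on single libraries of both groups. With the muscle covariate 8 nuclear and 1 mitochondrial calls were made. Without DR replicate 1 the nuclear count was 17, without DR replicate 3 it was 15, and without the libraries of high Ckm it was 0 at a median of -0.57, compared with -0.39 over all libraries. The mitochondrial count went from 8 to 2 without DR replicate 2, to 3 without ALDR replicate 3, to 4 without ALDR replicate 5 or DR replicate 1, to 5 without ALDR replicate 4 or DR replicate 3, and to 1 without the libraries of high Ckm (median -1.22). Muscle markers ranged from -0.36 to 7.91 log2 CPM in ALDR and from 4.86 to 10.2 in DR (median log2 fold change -2.94), with overlap. Of 8 macrophage markers 6 were higher in ALDR than in DR (median 1.40, mean level 6.84 to 7.49 log2 CPM in ALDR and 5.56 to 6.33 in DR), and their part in the result was not tested.

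A return to full feeding was compared with continued DR. In DRAL 31 of 79 nuclear members fell and 1 rose, against 15.9% and 14.6% of all genes, with a median of -0.31. All DRAL libraries lay below all DR libraries for 36 members (16.4% of genes). Calls lower numbered 12 in complex I, 3 in complex II, 5 in complex III, 3 in complex IV and 8 in complex V. Sdha, at 335, 298, 456, 304 and 391 CPM in DRAL, was below all DR values (-0.81, edgeR adjusted p = 0.00115), and Uqcrfs1 (-0.82, adjusted p = 0.000891), Cox5a (-0.67, 0.000999) and Cyc1 (-0.66, 0.000554) fell likewise. Cox6a2 was at 0.042 to 0.116 CPM in DRAL, which is 2 counts or fewer in each library and below the floor of 3 counts. Its fitted change is therefore no measure of size, and all 10 muscle markers fell with it (median -10.1, mean level -0.55 to 0.23 log2 CPM in DRAL). Ndufa4l2 was the member that rose. It was at 6.66, 6.64, 4.82, 5.76 and 5.86 CPM in DRAL, above all 3 DR libraries (0.93 ± 0.34, adjusted p = 0.0474).

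Mitochondrial genes fell more strongly, 11 of 13 with a median of -1.18 and no overlap for 11. mt-Co1 was at 5721, 3478, 3431, 5855 and 5081 CPM in DRAL, against 10044 CPM in the lowest DR library (-1.41, edgeR adjusted p = 0.00193). mt-Nd5 fell by 1.62 ± 0.29 (adjusted p = 0.000569), mt-Nd4l by 1.54 (0.0460) and mt-Nd4 by 1.41 (0.0021). The mitochondrial count was 5 without DR replicate 1 and 6 without DR replicate 2 or DRAL replicate 2. With the muscle covariate, whose DR and DRAL ranges do not overlap, 1 nuclear and 1 mitochondrial gene were called (medians of -0.28 and -1.47), and without the libraries of high Ckm 4 and 2 (medians of -0.43 and -1.38). This comparison and that of ALDR with DR share the 3 DR libraries.

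Against lifelong AL, the DRAL mice gave few calls. Uqcrq and Uqcr11, small subunits of complex III, rose, against 0.891% of all genes. Uqcrq was at 13.96, 14.9 and 15.9 CPM in AL and at 28.3, 22.0, 29.7, 34.5 and 21.9 CPM in DRAL (0.87 ± 0.18, edgeR adjusted p = 0.0174). Uqcr11 was at 117, 87.2 and 144 CPM in AL and at 154, 159, 215, 217 and 182 CPM in DRAL (0.68 ± 0.16, adjusted p = 0.0359). Neither overlapped. Of 79 nuclear members 78 had a value above 0 (50.2% of genes), the median was 0.35, and 57 had an unadjusted p under 0.05. These values are not independent, and library means over the nuclear members overlapped (5.81 to 6.26 log2 CPM in AL and 6.215 to 6.55 in DRAL). The count of 2 became 0 without AL replicate 1 or 2 or without the libraries of high Ckm. It was 1 with the muscle covariate or without DRAL replicate 3, 4 or 5, and DESeq2 called 13. Muscle markers were at a mean level of 0.45 to 5.997 log2 CPM in AL and -0.55 to 0.23 in DRAL, without overlap. Setting aside the 3 libraries with liver RNA from the shared fit gave 19, whereas leaving out AL replicate 3, the only one of them in this comparison, gave 2. No mitochondrial gene was called by edgeR and 1 by DESeq2 (median 0.45, 1 at an unadjusted p under 0.05, and 1 called without DRAL replicate 2). The 2 switches compared with each other gave 1 call, Cox6a2, higher in ALDR (edgeR adjusted p = 0.0404), against 6.37% of genes. As DRAL is below the floor of 3 counts in each library, no fold is given. The gene was at 0, 6.64, 0.226, 0.131 and 0.682 CPM in ALDR, the 6.64 CPM coming from the library with 363 CPM of Ckm, and the call was lost without ALDR replicate 2 or 5 or any 1 of the 5 DRAL libraries. Without ALDR replicate 4 the count was 3. The nuclear median was -0.07, with 7 members lower and 1 higher at an unadjusted p under 0.05, and DESeq2 called 2. No mitochondrial gene was called by edgeR or DESeq2 (median 0.17, 1 lower at an unadjusted p under 0.05). The mean in DRAL lay between AL and DR for 71 of 79 nuclear members (89.9%), against 42.1% of genes. That share is not a like background either, as most genes were not called between AL and DR.

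Young mice after 2 months of restriction were compared with AL mice of the same age, in libraries with little muscle RNA (Ckm at most 0.839 CPM). Of the 79 nuclear members 60 rose and none fell in ALDR, against 14.8% and 14.4% of all genes, with a median log2 fold change of 0.62 and quartiles of 0.46 and 0.74. Groups did not overlap for 59 of them (21.6% of genes). By complex, 26 of 37, 4 of 4, 8 of 9, 9 of 12 and 13 of 17 rose, with medians of 0.59, 0.73, 0.79, 0.67 and 0.58 for complexes I to V. Sdha was at 281, 334 and 382 CPM in AL and at 753, 898 and 618 CPM in ALDR (1.19 ± 0.18, edgeR adjusted p = 0.00015). Its highest ALDR library exceeded every other WAT library. Ndufv1 was at 159, 158 and 225 CPM in AL and at 345, 343 and 314 CPM in ALDR (0.89 ± 0.13, adjusted p = 8.73e-05). Atp5b was at 1359, 1419 and 1807 CPM in AL and at 2513, 2519 and 2169 CPM in ALDR (0.65, adjusted p = 0.00168). The groups of these genes stayed apart, as did those of Uqcrfs1 (0.93 ± 0.18, adjusted p = 0.00086).

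Smaller rises in the young ALDR mice were those of Cyc1 (0.70, edgeR adjusted p = 0.000819), Cox5a (0.69, 0.00202) and Uqcrc1 (0.55, 0.0023). Cox8a reached 0.49 without passing (adjusted p = 0.0522). Cox6a2, at 0.181 to 0.211 CPM in AL and with no count in the 3 ALDR libraries, was too low for a fold change. All 13 mitochondrial genes rose, with a median of 1.82 and no overlap for 11. mt-Co1 was at 5793, 2258 and 6624 CPM in AL and at 18888, 16408 and 10423 CPM in ALDR (1.64, adjusted p = 0.00189). mt-Cytb was at 456, 172 and 502 CPM in AL and at 1781, 1374 and 840 CPM in ALDR (1.82, adjusted p = 0.00172). AL replicate 2 was the lowest library for both genes. The largest fitted change, that of mt-Nd6 (2.59 ± 0.69, adjusted p = 0.00896), rested on 1 library. Its values were 29.6, 3.51 and 20.8 CPM in AL and 47.8, 251 and 25.03 CPM in ALDR, with overlap. Next were mt-Co2 (2.36 ± 0.67, adjusted p = 0.013) and mt-Atp6 (2.01, 0.00246).

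The nuclear calls at 5 months were 44 to 72 when 1 library was left out, and 45 without AL replicate 2 and the other libraries with liver RNA (median 0.49). Macrophage markers moved here too, with 5 of 8 lower in ALDR (median -0.93, mean level 7.04 to 7.50 log2 CPM in AL and 6.32 to 6.66 in ALDR, none at 0), while the muscle markers stayed at a mean level of -0.12 to 0.35 in AL and -0.59 to 0.26 in ALDR. The part of this shift in the result was not tested. The comparison shares no library with DR against AL at 26 months. The members called in both were 57 nuclear (85.1% of the 67 and 95% of the 60) and 10 mitochondrial (100% of the 10 and 76.9% of the 13). Over all genes, 1429 were called higher in both (66.7% of the 2142 and 60.9% of the 2346).

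**Figure D3:**
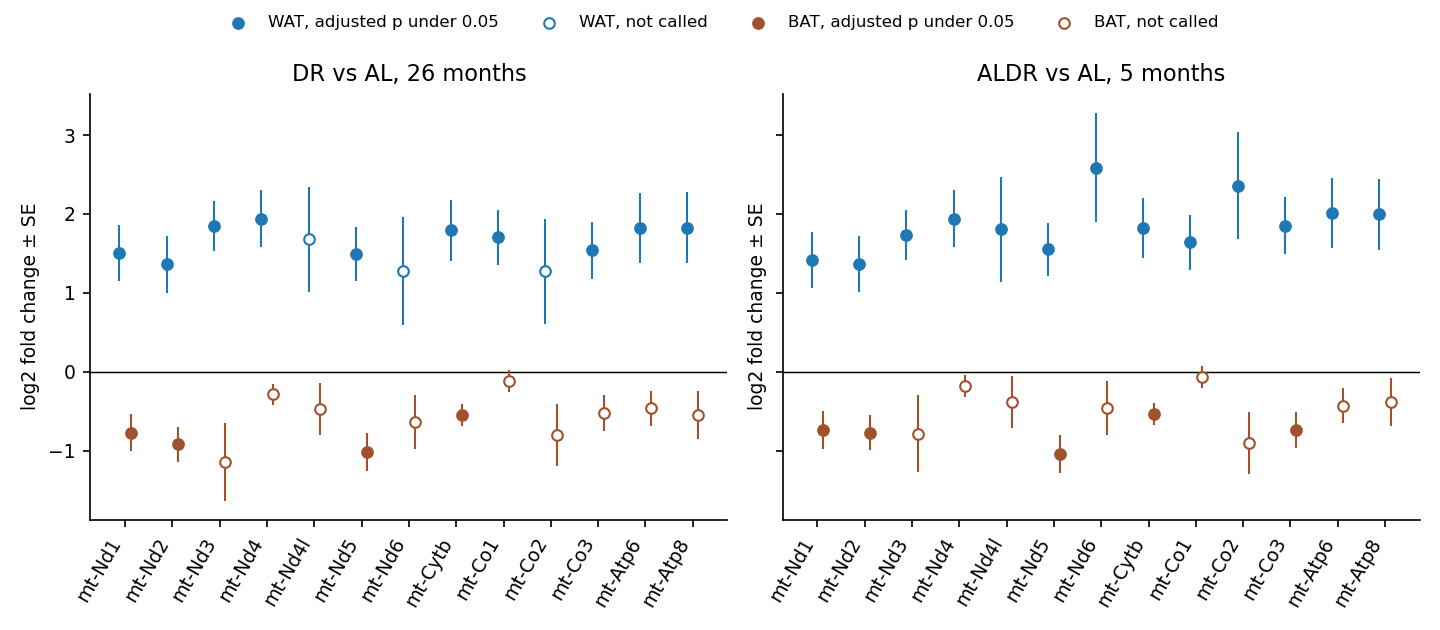
Log2 fold change ± SE of the 13 mitochondrial genes in WAT (blue) and BAT (brown) for DR against AL at 26 months and ALDR against AL at 5 months. Filled points passed an adjusted p of 0.05. All WAT values lie above 0 and all BAT values below 0 in both panels, and few BAT genes (4 and 5) are filled.

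The response to a new restriction was then compared between ages, as the change at 26 months minus that at 5 months. Old ALDR lies on the other side of the Arsb split from old AL and both young groups. Age and this split cannot be told apart here. Only Atp5j passed among 79 nuclear members (0.67% of genes were called lower). It was at 62.1, 58.6 and 65.3 CPM in old AL, 65.4, 67.9, 62.1, 65.8 and 69.6 CPM in old ALDR, 73.0, 62.6 and 81.9 CPM in young AL and 114, 126 and 102 CPM in young ALDR. The old groups overlapped and the young ones did not, and the difference in log2 fold change was -0.56 (edgeR adjusted p = 0.0332). Of the 79 differences 5 were above 0 (51.2% of genes), the median was -0.33, and 23 had an unadjusted p under 0.05. Sdha (-0.87 ± 0.24, adjusted p = 0.0728) and mt-Co1 (-1.17 ± 0.46, 0.184) did not pass. All 13 mitochondrial differences were below 0 (median -1.14), with 8 at an unadjusted p under 0.05 and none called by edgeR or DESeq2. Among nuclear members DESeq2 called 3. The Atp5j call gave way to a count of 0 without any 1 of AL replicates 1 and 3 or ALDR replicates 3 and 4 at 26 months, or AL replicates 1 and 2 or ALDR replicates 1 and 2 at 5 months. The count was 2 without old AL replicate 2 or old ALDR replicate 5, and 4 without young AL replicate 3. Without the 3 libraries with liver RNA the median was -0.08 and the count 0.

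Age itself was read from the AL mice. No nuclear member passed between 26 and 5 months with edgeR and 2 with DESeq2, against 0.114% of all genes called in either direction. Of the 79 values 3 were above 0 (50.9% of genes), the median was -0.29, and 29 were lower and 1 higher at an unadjusted p under 0.05. Each AL group holds 1 of the libraries with liver RNA. Leaving out young AL replicate 2 gave 16 calls, leaving out old AL replicate 3 gave 4, and leaving out both with old ALDR replicate 2 gave 34 at a median of -0.53. All 13 mitochondrial values were below 0 (median -0.41), with none called by edgeR or DESeq2 and none at an unadjusted p under 0.05.

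In BAT, nuclear subunit genes were near 0 and mitochondrial ones below it. Lifelong DR against AL at 26 months gave no call among 79 members with edgeR or DESeq2, against 5.99% of genes called higher and 5.52% lower, and 3 had an unadjusted p under 0.05. The median log2 fold change was -0.03 and 32 values were above 0 (49.1% of genes). Atp5b was at 7359, 5426 and 6669 CPM in AL and at 6072, 5587 and 5814 CPM in DR, and Sdha at 3033, 2271 and 2750 CPM in AL and at 2219, 2202 and 2220 CPM in DR. The Atp5b groups overlapped. For Sdha the DR libraries were just below the lowest AL library, and its -0.28 did not pass. Cyc1 was at 1032, 823 and 964 CPM in AL and at 1042, 902 and 1000 CPM in DR, with overlapping groups. Of 8 brown adipocyte markers 2 rose and 2 fell, 2 had a value above 0, and the median was -0.69. Their mean level was 7.77 to 8.58 log2 CPM in AL and 7.28 to 7.71 in DR. Ucp1 was at 3154 to 4772 CPM in AL and 937 to 1928 CPM in DR. Neither overlapped, and the part of these markers in the result was not tested.

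Mitochondrial transcripts were lower in BAT under DR, the opposite side from WAT. Of the 13, 4 fell and none rose, all values were below 0, the median was -0.55, and DR libraries lay below AL libraries for 10 (15.4% of genes). mt-Nd5 was at 21023, 13816 and 21520 CPM in AL and at 8387, 10111 and 9235 CPM in DR (-1.02 ± 0.24, edgeR adjusted p = 0.0114). mt-Nd2 was at 30929, 22258 and 31599 CPM in AL and at 14890, 14208 and 15688 CPM in DR (-0.92 ± 0.22, adjusted p = 0.014). mt-Cytb was at 57150, 52454 and 55525 CPM in AL and at 36255, 36508 and 40285 CPM in DR (-0.55 ± 0.14, adjusted p = 0.0191). None of these groups overlapped, and mt-Nd1 also fell (-0.77 ± 0.24, adjusted p = 0.0442). mt-Co1 was at 61902, 58121 and 62809 CPM in AL and at 55815, 52875 and 59712 CPM in DR. These groups overlapped and the change was -0.12 ± 0.14 (adjusted p = 0.626). The calls rested on single libraries. Without AL replicate 1 or DR replicate 2, which had 6075585 counts, 1 was left, and without AL replicate 3, without DR replicate 1 or with the muscle covariate there was none. The mean level of 10 skeletal muscle markers was higher in each DR library than in any AL library (6.05 to 8.12 and -1.85 to 5.43 log2 CPM). Groups did not overlap for 9 of the 10, the median log2 fold change was 2.77, and none was called. Adipocyte markers were at a mean level of 8.69 to 8.85 log2 CPM in DR and 8.99 to 9.05 in AL, without overlap. The part of the adipocyte markers in the result was not tested.

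A return to full feeding in BAT was compared with continued DR. In DRAL against DR no nuclear member was called by edgeR and 1 by DESeq2 (5 at an unadjusted p under 0.05), against 3.47% of genes called higher, with 73 of 79 values above 0 (51% of genes) and a median of 0.18. mt-Nd2, at 28146, 24994 and 29041 CPM in DRAL, was above all DR libraries and rose by 0.88 ± 0.22 (edgeR adjusted p = 0.0237). mt-Cytb, at 57815, 61120 and 55698 CPM, rose by 0.63 ± 0.14 (adjusted p = 0.0126). All 13 mitochondrial values were above 0 (median 0.68), and DESeq2 called 6. The count of 2 fell to 1 without DR replicate 2 or 3 or DRAL replicate 1 and to 0 without DR replicate 1. Skeletal muscle markers were lower in every DRAL library than in any DR library for 10 of 10 genes (median -2.64, mean level 6.05 to 8.12 log2 CPM in DR and -0.45 to 5.30 in DRAL). None of the 10 was called, and with these markers as a covariate no member was called. Brown adipocyte markers were at a mean level of 7.94 to 8.26 log2 CPM in DRAL and 7.28 to 7.71 in DR, without overlap. Adipocyte markers were at 8.90 to 9.05 in DRAL and 8.69 to 8.85 in DR, also without overlap. The part of both sets in the result was not tested.

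Late restriction in BAT gave no call. ALDR against AL gave 0 of 79 nuclear and 0 of 13 mitochondrial calls by edgeR and by DESeq2, against 1.3% of genes, with medians of -0.07 and -0.36 and with 1 and 4 members at an unadjusted p under 0.05. mt-Nd1 shows the spread in ALDR. It was at 34046 CPM in replicate 1 and at 17568, 17272, 17798 and 13190 CPM in the other 4, against 28072, 20664 and 28002 CPM in AL. Without ALDR replicate 1, 4 mitochondrial genes were called. ALDR replicate 5 had the lowest nuclear mean (7.42 log2 CPM against 7.97 to 8.18 in the other 4) and epithelial markers at a mean of 5.76 log2 CPM. ALDR against DR gave no call by either tool (5.21% of genes, medians of -0.07 and 0.34, 3 and 4 at an unadjusted p under 0.05, and 1 mitochondrial call without ALDR replicate 5). ALDR against DRAL gave none by edgeR (2.02% of genes, medians of -0.23 and -0.30, 9 and 3 at an unadjusted p under 0.05) and 1 nuclear call by DESeq2. Leaving out ALDR replicate 1 gave 1 nuclear and 4 mitochondrial calls there, and leaving out DRAL replicate 3 gave 1 nuclear. DRAL against AL gave no call by either tool, where 0% of all genes passed (medians of 0.15 and -0.02, none at an unadjusted p under 0.05).

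Restriction of young mice gave 1 nuclear and 5 mitochondrial calls in BAT. The nuclear median was -0.16, 10 of 79 values were above 0 (48.6% of genes), and the ALDR libraries lay below the AL libraries for 21 (20.7% of genes). Ndufa4l2, at 6.64, 7.42 and 8.30 CPM in AL and 3.43, 5.56 and 5.51 CPM in ALDR, was the only nuclear call (-0.62 ± 0.19, edgeR adjusted p = 0.0407), against 7.22% of genes called lower. Ndufs1 was at 871, 746 and 815 CPM in AL and at 623, 654 and 617 CPM in ALDR, and Sdha at 2651, 2208 and 2519 CPM in AL and at 1982, 2042 and 1980 CPM in ALDR. Neither gene overlapped between groups and neither passed (-0.36 and -0.30). Of the mitochondrial genes 5 fell and 10 showed no overlap, with a median of -0.54. mt-Nd5 was at 17021, 16494 and 13282 CPM in AL and at 6073, 8836 and 7736 CPM in ALDR (-1.05 ± 0.24, adjusted p = 0.00825). mt-Cytb was at 48745, 42574 and 42895 CPM in AL and at 28751, 33266 and 30323 CPM in ALDR (-0.54 ± 0.14, adjusted p = 0.0167). Both were lower in each restricted library.

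The other mitochondrial calls in young BAT were mt-Nd2 (-0.77 ± 0.22, edgeR adjusted p = 0.028), mt-Co3 (-0.74 ± 0.23, 0.0375) and mt-Nd1 (-0.74 ± 0.24, 0.047). mt-Co1 was at 47683, 43222 and 46577 CPM in AL and at 44033, 44584 and 42887 CPM in ALDR, overlapping (-0.06 ± 0.14, 0.811). Leaving out 1 library left 0 mitochondrial calls (ALDR replicate 1), 1 (AL replicate 1 or ALDR replicate 3), 2 (AL replicate 2 or ALDR replicate 2) or 3 (AL replicate 3). The Ndufa4l2 call was lost without any 1 of the 6 libraries except ALDR replicate 2. Epithelial markers were higher in every ALDR library than in any AL library for 6 of 6 genes, with mean levels of 2.38 to 3.50 and -0.19 to 0.84 log2 CPM (median log2 fold change 2.24). None of the 6 was called. Ucp1 was at 1581 to 3076 CPM in ALDR and 3964 to 6082 CPM in AL, and adipocyte markers at a mean level of 8.61 to 8.74 and 8.82 to 9 log2 CPM, both without overlap. The part of these markers in the result was not tested. Between ages, AL mice differed in no member by edgeR or DESeq2 (0.0795% of genes, medians of 0.01 and 0.30, 0 nuclear and 3 mitochondrial at an unadjusted p under 0.05). The change at 26 months minus that at 5 months gave none by either tool (0.0144% of genes, medians of 0.07 and 0.26, 1 and 0 at an unadjusted p under 0.05).

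Set side by side, 10 of the 13 mitochondrial genes had every DR library above every AL library in WAT and below in BAT at 26 months, and 9 of 13 had the same arrangement at 5 months. The nuclear counts were 1 and 16 of 79. Of the 13629 genes tested in both depots, 1.99% and 3.06% were arranged in this way. The depots were sequenced from differently prepared RNA and fitted apart, and the difference between them was not tested.

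Liver was sampled in the switched mice only, ALDR and DRAL at 26 months. Of 77 nuclear members 5 rose and 2 fell in ALDR, against 10.9% and 12.9% of all genes, so that the shares of members called were below the background. The median was 0.11 and 53 values were above 0 (49.5% of genes). ALDR libraries lay above DRAL libraries for 19 members and below for 4, against 19% and 22.4% of genes. Atp5g3, which encodes the c-ring subunit of ATP synthase, was at 131, 163 and 170 CPM in ALDR and at 97.97, 100 and 102 CPM in DRAL (0.63 ± 0.12, edgeR adjusted p = 0.00466). Atp5d, the δ subunit, was at 69.6, 65.6 and 58.1 CPM in ALDR and at 50.3, 49.9 and 41.8 CPM in DRAL (0.44 ± 0.12, adjusted p = 0.0217). Cyc1 was at 133, 118 and 127 CPM in ALDR and at 94.2, 93.3 and 103 CPM in DRAL (0.38 ± 0.10, adjusted p = 0.0228). The libraries of these genes did not overlap.

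The complex I subunits Ndufa5 (0.42 ± 0.12, edgeR adjusted p = 0.0286) and Ndufb10 (0.34 ± 0.11, 0.0429), the latter named after its value was seen, were the other liver rises. Ndufa12, an accessory subunit of complex I, was at 23.0, 20.6 and 24.7 CPM in ALDR and at 36.3, 26.7 and 30.2 CPM in DRAL (-0.45 ± 0.14, adjusted p = 0.0391). Atp5k was at 35.0, 39.1 and 35.5 CPM in ALDR and at 67.2, 39.7 and 62.8 CPM in DRAL (-0.63 ± 0.18, adjusted p = 0.0283). Both were lower throughout in ALDR, although 1 DRAL library of Atp5k came close. The count of 7 was 2 without ALDR replicate 1 or DRAL replicate 1 or 3, and 3 without ALDR replicate 2 or 3. Of 8 hepatocyte markers 3 were higher in ALDR (mean level 12.2 to 12.4 log2 CPM, and 11.9 to 12.4 in DRAL), and of 5 epithelial markers 2 were lower (1.17 to 1.77 and 2.01 to 2.36), and their part in the result was not tested.

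**Figure D4:**
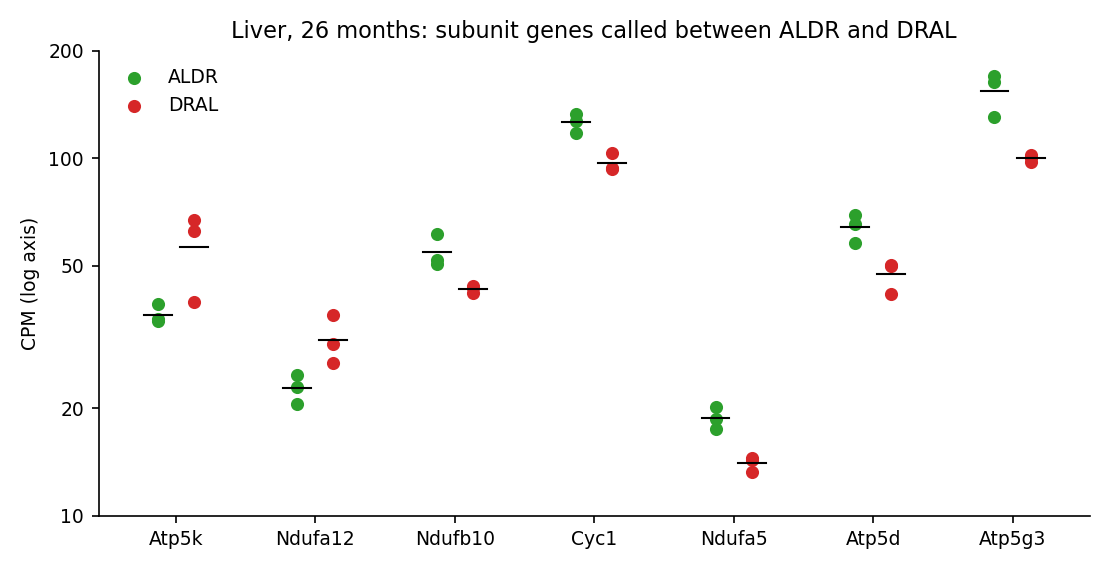
CPM on a log axis of the 7 subunit genes called between ALDR (green) and DRAL (red) in liver at 26 months. Points are the 3 libraries of each group and lines are their means. Groups do not overlap for any of the 7, and Atp5k has the closest pair, 39.1 and 39.7 CPM.

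Genes around the chain were counted from lists of its assembly factors, coenzyme Q synthesis, the TCA cycle, fatty acid oxidation with electron transfer flavoprotein, regulators of mitochondrial genes, and mitochondrial and cytosolic ribosomes. In WAT, DR against AL, 11 of 13 TCA cycle genes rose (median 0.63), among them citrate synthase Cs (1.11 ± 0.14, edgeR adjusted p = 2.74e-05) and Idh3b (0.94 ± 0.14, 0.000133). Coenzyme Q synthesis, which makes the carrier between complexes I or II and III, had 9 of 13 higher (median 0.62), with Coq8a at 1.67 ± 0.21 (adjusted p = 2.7e-05). Fatty acid oxidation had 12 of 18 higher and 1 lower (median 0.57), with Echs1, Acadl and Cpt2 at 0.89, 0.88 and 0.85. Of 45 assembly factors 17 were higher (median 0.28), and of 77 mitochondrial ribosomal proteins 25 (median 0.28), beside 13.5% of all genes. The 79 cytosolic ribosomal proteins had a median of -0.15. Regulators had 4 of 19 higher, among them the transcription factor Tfb2m (0.90 ± 0.12, adjusted p = 4.2e-05) and the coactivator Ppargc1a (1.83 ± 0.39, 0.00211). Of the isoform partners, Cycs (0.91), Cox4i1 (0.75) and Cox7a1 (1.43) rose, and Cox8b (0.92 ± 0.53, adjusted p = 0.216) and Cox4i2 (-0.69 ± 0.39, 0.203) did not pass. Muscle markers rose in the same DR libraries (median 4.55) and 7 of 8 macrophage markers fell (median -2.19 over the 8). The part of these markers in the changes of the lists was not tested.

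**Figure D5:**
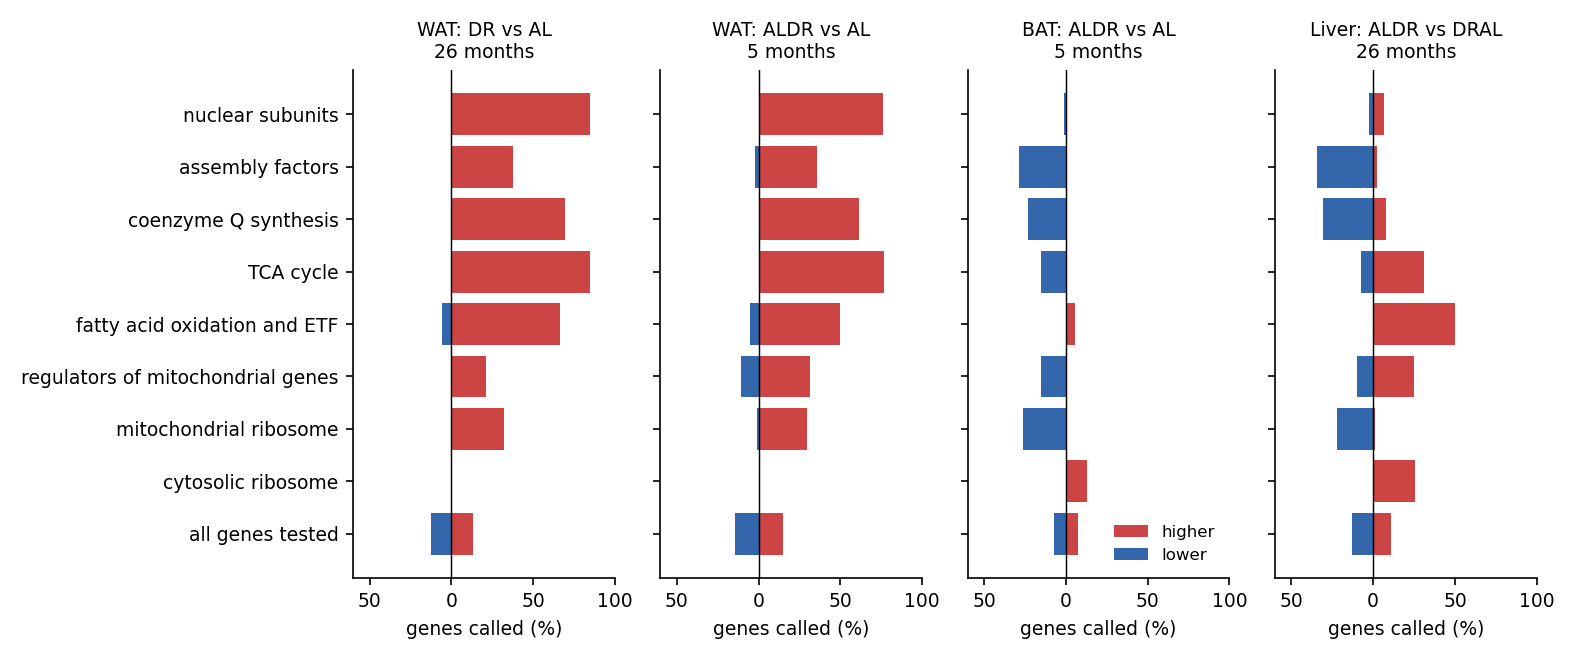
Share of each gene list called higher (red, right) or lower (blue, left) at an adjusted p of 0.05 in 4 comparisons, beside the share of all genes tested. Nuclear subunits and TCA cycle genes have the longest red bars in WAT, assembly factors and mitochondrial ribosome the longest blue bars in BAT among the lists drawn, which leave out the mitochondrial genes, and fatty acid oxidation the longest red bar in liver.

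In young WAT the lists had higher calls for 10 of 13 TCA cycle genes, 8 of 13 for coenzyme Q, 9 of 18 for fatty acid oxidation with 1 lower, 16 of 45 assembly factors with 1 lower and 23 of 77 mitochondrial ribosomal proteins with 1 lower, beside 14.8% of all genes higher and 14.4% lower. Tfb2m rose again (0.87 ± 0.12, edgeR adjusted p = 5.36e-05), the mitochondrial helicase Twnk rose (0.86, 0.0022), and the nuclear receptor Esrrg fell (-2.46 ± 0.50, 0.00135). Of 8 macrophage markers 5 fell in the same comparison (median -0.93), and their part in the changes of the lists was not tested. In DRAL against DR, 10 of 13 TCA cycle genes and 10 of 18 of fatty acid oxidation fell, with Cs at -0.96 ± 0.12 (adjusted p = 3.15e-05) and Ppargc1a at -2.26 ± 0.34 (0.000125). All 10 muscle markers fell in this comparison (median -10.1), and 6 of 8 macrophage markers rose (median 1.19). The part of these markers in the changes of the lists was not tested. Assembly factors had 4 higher and 5 lower, and mitochondrial ribosomal proteins 6 higher and 8 lower, of 45 and 77, which is below the shares over all genes (14.6% higher and 15.9% lower).

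The lists in BAT were read against 7.22% of genes called lower in young ALDR against AL and 5.52% in old DR against AL. In young ALDR against AL, 13 of 45 assembly factors fell (median -0.28), led by Coa3 (-0.63 ± 0.13, edgeR adjusted p = 0.00545), which acts on complex IV, and by Cox11 and Cox19 (-0.73 and -0.79), which deliver its copper. Mitochondrial ribosomal proteins had 20 of 77 lower and none higher (median -0.21), and cytosolic ribosomal proteins 10 of 79 higher (median 0.35), beside 7.2% of genes called higher. In old DR against AL the counts were 6 assembly factors and 9 mitochondrial ribosomal proteins lower, with Ndufaf4, an assembly factor of complex I, at -0.78 ± 0.17 (adjusted p = 0.00786) and Mrpl47 at -0.79 ± 0.17 (0.00796). Regulators that fell in old DR were Gabpa (-0.81 ± 0.18, adjusted p = 0.00784), a subunit of the ETS factor GABP, Perm1 (-1.32 ± 0.32, 0.0139) and the mitochondrial RNA-binding protein Lrpprc (-0.46 ± 0.13, 0.0243). In DRAL against DR, where 3.47% of genes were called higher, 9 of 45 assembly factors and 14 of 77 mitochondrial ribosomal proteins rose and none fell, with Ndufaf4 at 0.83 ± 0.17 (adjusted p = 0.00698). The comparisons with DR share its 3 libraries. In these, mean levels of muscle, adipocyte and brown adipocyte markers did not overlap between groups, and in the young comparison those of epithelial and adipocyte markers did not. The part of the markers in the changes of the lists was not tested.

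The same lists were counted in liver, where 10.9% of all genes were called higher and 12.9% lower. ALDR against DRAL had 9 of 18 fatty acid oxidation genes higher (median 0.44), led by Cpt1a, the gate for fatty acids into mitochondria (1.27 ± 0.17, edgeR adjusted p = 0.000993), and Acadl (0.88 ± 0.14, 0.00223). Of 44 assembly factors, 15 were lower and 1 higher (median -0.23), with Ndufaf1 at -0.74 ± 0.12 (adjusted p = 0.00195) and Acad9, which acts in the same assembly step, at -0.90 ± 0.16 (0.00347). Mitochondrial ribosomal proteins had 17 of 77 lower and 1 higher (median -0.23), and cytosolic ones 20 of 78 higher (median 0.22). TCA cycle genes were mixed, 4 higher and 1 lower, with Ogdh at 0.81 ± 0.14 (adjusted p = 0.00336) and Cs at -0.54 ± 0.10 (0.0036). Coenzyme Q synthesis had 4 of 13 lower and 1 higher (median -0.24). Regulators had 5 of 20 higher and 2 lower, with Tfb2m, Ppargc1a and Esrrg at 0.94, 1.29 and 1.04. In the same comparison 3 of 8 hepatocyte markers were higher and 2 of 5 epithelial markers lower. Their part in the changes of the lists was not tested.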

How the data were processed

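Gene counts of 48 libraries were used as the authors deposited them, with no normalisation. Per the submitters' processing notes, reads were trimmed with Trim Galore 0.3.7, aligned to GRCm38 with TopHat2 2.0.14 and analysed with DESeq2, whereas the counting program and annotation are not given in the sources used here. Per the labels' protocols, WAT and liver were paired-end, ribosome-depleted and stranded libraries of 100-base reads and BAT single-end poly(A) libraries of 150-base reads. Each of 25913 identifiers was matched to a symbol through GENCODE M21 or the table of gene names (25012 matched).

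Each tissue was fitted apart with edgeR 4.0.16 in R 4.3.3 (filterByExpr, TMM factors, the quasi-likelihood test, all groups of a tissue in 1 model), which left 15828 genes in WAT, 13845 in BAT and 12761 in liver, and p-values were Benjamini-Hochberg adjusted over all of them (threshold 0.05). Every adjusted p in the text is from this edgeR model, errors of fold changes are standard errors, and CPM use TMM-scaled totals (log2 CPM with a prior count of 2). The 19 comparisons comprise 9 in each fat depot and 1 in liver. With 3 counts as a floor, a library resolved 0.133 to 0.245 CPM in WAT, 0.155 to 0.494 in BAT and 0.131 to 0.204 in liver, for counting error only. The model was tested on simulated counts. The BAT titles spell the late and young restriction groups ADRL, read here as ALDR, since each description gives the switch as one from full feeding to restriction. No sample label pairs animals across groups, and equal replicate numbers did not correlate, so the replicate block is an alternative only. Other alternatives were DESeq2 1.42.0, its size factors, no filter on low counts, only the groups compared, a muscle marker covariate, removal of the 13 mitochondrial genes and each library left out. Removing libraries with muscle or liver RNA was added after the data were seen.

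Named genes are a fixed set (Ndufs1, Ndufv1, Ndufb8, Sdha, Sdhb, Uqcrc1, Uqcrfs1, Cyc1, Cox5a, Cox6a1, Cox6a2, Cox7a2, Cox8a, Atp5a1, Atp5b, mt-Nd1, mt-Nd4, mt-Cytb, mt-Co1, mt-Atp6, Ndufa4, Ndufa4l2), up to 3 called members with the largest change in each direction, any called member where 5 or fewer were called or in the comparison of ages, and up to 3 genes with the smallest p per other list. The members and lists were chosen with earlier results of these data known. Markers were listed for adipocytes, brown adipocytes, hepatocytes, skeletal muscle, macrophages, epithelium and endothelium. Shared 100-base windows were counted between annotated transcripts.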

Additional observations from a re-analysis of the deposited data

Results flagged for a closer look

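In groups of 5 libraries, 94 sets of values were examined for a library far from the others of its group, and 12 were found. Chance gives about 1 in 20 for independent sets. These sets are not independent, as they come from the same few libraries, so the 2 shares are not compared. In WAT they were Cox6a2 in ALDR replicate 2 at 26 months (6.64 CPM, high) and Ndufa4 in DRAL replicate 4 (181 CPM, high). The other 10 lie in BAT of the ALDR mice at 26 months. Replicate 5 was low in the mean of the nuclear subunits (7.42 log2 CPM), Cox5a (321 CPM), Cox6a1 (489 CPM), Cyc1 (719 CPM) and mt-Co1 (38225 CPM). Replicate 1 was high in Ndufa4l2 (7.57 CPM), mt-Nd1 (34046 CPM), mt-Nd2 (33345 CPM) and mt-Nd5 (21232 CPM), and replicate 3 was high in Cox6a2 (27.9 CPM).

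The WAT response of Atp5j to a new restriction differed between ages by a test of the difference itself (-0.56 on the log2 scale, 26 months minus 5 months; edgeR). The call was lost without any 1 of 8 libraries, with the replicate block, with only the groups compared, and without the libraries of high muscle or liver RNA. As old ALDR alone lies on the low side of the Arsb split, age and this split cannot be told apart.

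Several genes had every restricted library above every AL library in WAT and below every AL library in BAT. The difference between depots was not tested. For DR against AL at 26 months the log2 fold changes in WAT and BAT were 1.505 and -0.77 for mt-Nd1, 1.36 and -0.92 for mt-Nd2, 1.85 and -1.14 for mt-Nd3, and 1.94 and -0.29 for mt-Nd4. They were 1.49 and -1.02 for mt-Nd5, 1.79 and -0.55 for mt-Cytb, and 0.92 and -0.28 for Sdha. For ALDR against AL at 5 months the mitochondrial genes gave 1.42 and -0.74 (mt-Nd1), 1.36 and -0.77 (mt-Nd2), 1.94 and -0.18 (mt-Nd4), 1.55 and -1.05 (mt-Nd5), 1.82 and -0.54 (mt-Cytb), 2.36 and -0.91 (mt-Co2), 1.85 and -0.74 (mt-Co3) and 2.01 and -0.43 (mt-Atp6). Among nuclear genes they were 0.78 and -0.36 (Ndufs1), 0.89 and -0.19 (Ndufv1), 1.19 and -0.30 (Sdha), 0.70 and -0.22 (Cyc1), 0.93 and -0.34 (Uqcrfs1) and 0.65 and -0.27 (Atp5b). Only mt-Nd1, mt-Nd2, mt-Nd5 and mt-Cytb (both ages) and mt-Co3 (5 months) passed the test in BAT.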

How the results depend on the processing

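No count or value changed direction under any alternative run, and 27 of the 100 single-gene results kept their call under all of them. The cause of each of the following changes was not tested. Counts are of called members, nuclear unless said otherwise. In WAT, DR against AL went from 67 to 26 (mitochondrial 10 to 1) without the libraries of high muscle RNA, and gave 44 to 69 (10 to 10) with 1 library left out. ALDR against AL (2) gave 8 with DESeq2, 1 without the filter, and 0 with only the groups compared or without muscle libraries, and 0 to 5 with 1 left out. ALDR against DR (29) gave 8 with the muscle covariate, 0 without muscle libraries and 15 to 30 with 1 left out, and its 8 mitochondrial calls became 1, 1 and 2 to 7. DRAL against DR (32) gave 1, 4 and 22 to 36, and its 11 mitochondrial calls 1, 2 and 5 to 11. DRAL against AL (2) gave 13 with DESeq2, 0 with only the groups compared, 1 with the covariate, 0 without muscle and 19 without liver libraries, and 0 to 2 with 1 left out, while its 0 mitochondrial calls became 1 with DESeq2, 1 without liver libraries and 0 to 1. ALDR against DRAL (1) gave 2 with DESeq2, 0 with the covariate or without muscle libraries, and 0 to 3. At 5 months the counts were 44 to 72 (mitochondrial 10 to 13) with 1 left out. Age (0) gave 2 with DESeq2, 34 without liver libraries and 0 to 16. The difference between ages (1) gave 3 with DESeq2, 2 with the covariate, 0 with only the groups compared, without muscle or without liver libraries, and 0 to 4.

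In BAT, the mitochondrial calls of DR against AL (4) became 0 with the covariate and 0 to 4 with 1 left out, those of ALDR against AL (0) 0 to 4, of ALDR against DR (0) 0 to 1 and of ALDR against DRAL (0) 0 to 4. DRAL against DR gave 1 nuclear call with DESeq2 and 2 with only the groups compared (0 as fitted), and 6, 7, 0 (covariate) and 0 to 2 mitochondrial ones (2 as fitted). ALDR against DRAL gave 1 nuclear call with DESeq2 and 0 to 1 with 1 left out. At 5 months the nuclear call (1) became 0 without the filter, 5 with only the groups compared and 0 to 1, and the 5 mitochondrial calls 0 to 3. In liver, 7 became 2 to 5.

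Same-numbered libraries did not deviate together (correlation over 0.1 in 13 of 47 pairs in WAT, 14 of 45 in BAT and 1 of 3 in liver, and 3 of 22, 4 of 18 and 0 of 6 libraries correlated best with their own number). With the replicate block, WAT ALDR against AL gave 1, ALDR against DR 3 mitochondrial, DRAL against AL 1, ALDR against DRAL 0 and the difference between ages 0 calls. BAT DRAL against DR gave 3 nuclear and 5 mitochondrial, BAT ALDR against AL at 5 months 3 nuclear, and liver 2. Depth limits members of few counts, among them Cox6a2, Cox6b2, mt-Nd4l, mt-Co2 and mt-Co3 in WAT, and groups of 3 limit most comparisons. Fat depots cannot be set against each other in level, as their RNA was prepared differently.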
